A study of Rattus norvegicus with 6 samples.

Results

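The genes described here encode Eif5 and the factors that act with it when the ribosome chooses a start codon. They are 9 of the 32623 genes of the deposited table, matched by symbol and chosen with earlier results of these data known. The members are Eif5, its mimic genes Bzw1 and Bzw2, Eif1 and its paralog Eif1b, Eif1ax, the eIF2 subunit genes Eif2s1 and Eif2s2, and Eif5b. Poly(A) RNA from rat brain was sequenced in 6 libraries. The 3 libraries of the vector group carried the genotype label pcDNA3.1, an empty expression plasmid, and the 3 of the LINC00894 group the label pcDNA3.1/LINC00894, the same plasmid with a human long non-coding RNA. Both groups therefore share the plasmid backbone. The labels gave no strain, age, sex, brain region, route of plasmid delivery or state of ischemia, although the series title concerns ischemia and reperfusion. Nor did they say that each library was a different animal. The p-values therefore reflect only the variation among these 6 libraries, and how much of it is technical cannot be told. The Y-linked gene Kdm5d had 0, 0 and 491 counts across the LINC00894 libraries, so these were not all from the same animal. The series title names EIF5 as a protein stabilized by LINC00894, and the comparison here asks whether the mRNA of Eif5 and of its partners differed between the groups.

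During initiation the small ribosomal subunit scans the mRNA while carrying the initiator tRNA bound to the GTPase eIF2. Eif1 and the product of Eif1ax hold the subunit in a scanning state, and the release of Eif1 at a start codon lets eIF2, helped by Eif5, complete GTP hydrolysis. Eif5 is the GTPase-activating protein of eIF2, so a higher amount of Eif5 is known to relax start codon choice, while a higher amount of Eif1 makes it more stringent. Bzw1 and Bzw2 resemble the tail of Eif5 but lack its GTPase-activating part, and they compete with it for eIF2. Phosphorylation of the eIF2 alpha subunit, the product of Eif2s1, lowers general initiation and favours translation of mRNAs with upstream reading frames such as Atf4. In brain this response follows ischemia and other stresses.

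Summed gene counts were between 12843875 and 16268464 per library. The Y-linked genes Kdm5d and Eif2s3y were at 0 counts in LINC00894 replicates 1 and 2. The other libraries had 491 to 930 counts of Kdm5d, so the groups were not balanced for the presence of Y-linked RNA. Brain markers were abundant in all libraries: the 5 neuronal markers (Rbfox3, Snap25, Syt1, Tubb3 and Map2) summed to 1600 to 1630 FPKM in vector and 1240 to 1750 FPKM in LINC00894. FPKM is the read count per kilobase of exonic length and scaled to the library's summed counts. The 5 astrocyte markers summed to 514 FPKM in vector replicate 3 and to 890 to 1160 FPKM in the other libraries. The 5 oligodendrocyte markers summed to 3140 FPKM in vector replicate 3 and to 1400 to 2430 FPKM elsewhere. The 5 microglial markers (Aif1, Cx3cr1, P2ry12, Tmem119 and Csf1r) summed to 48.6 to 50.9 FPKM in vector and to 52.8 to 61.6 FPKM in LINC00894, without overlap, but the groups overlapped after TMM scaling. The 2 blood markers summed to 4.67 to 58.4 FPKM over the libraries and the 3 neutrophil markers to 7.5 to 86.4 FPKM. The groups overlapped for both. Of the 3 endothelial markers measured, 1 had 0 counts in all libraries. In bulk tissue, fewer cells of a type and less RNA per cell cannot be told apart.

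All 9 genes passed the filter on low counts, and none of them passed the test between groups. edgeR's quasi-likelihood test with Benjamini-Hochberg adjustment called 0 of 15121 genes (0%), and 610 genes (4.03%) had an unadjusted p under 0.05, 1.82% of all genes higher and 2.22% lower in LINC00894. Of the 9 genes, 0 did. Set against vector, LINC00894 gave a positive log2 fold change in 8 of the 9 genes, against 51.8% of all genes tested. The values ranged from -0.009 for Bzw2 to 0.25 for Eif2s1, with a median of 0.13 against 0.012 over all genes tested. The 8 include Eif1ax at 0.001 (SE 0.17), and the 95% intervals of all 9 genes included 0. Over the 6 libraries 31 of the 36 pairs among the 9 genes had a positive Pearson's r, so their signs are not independent.

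**Figure D1:**
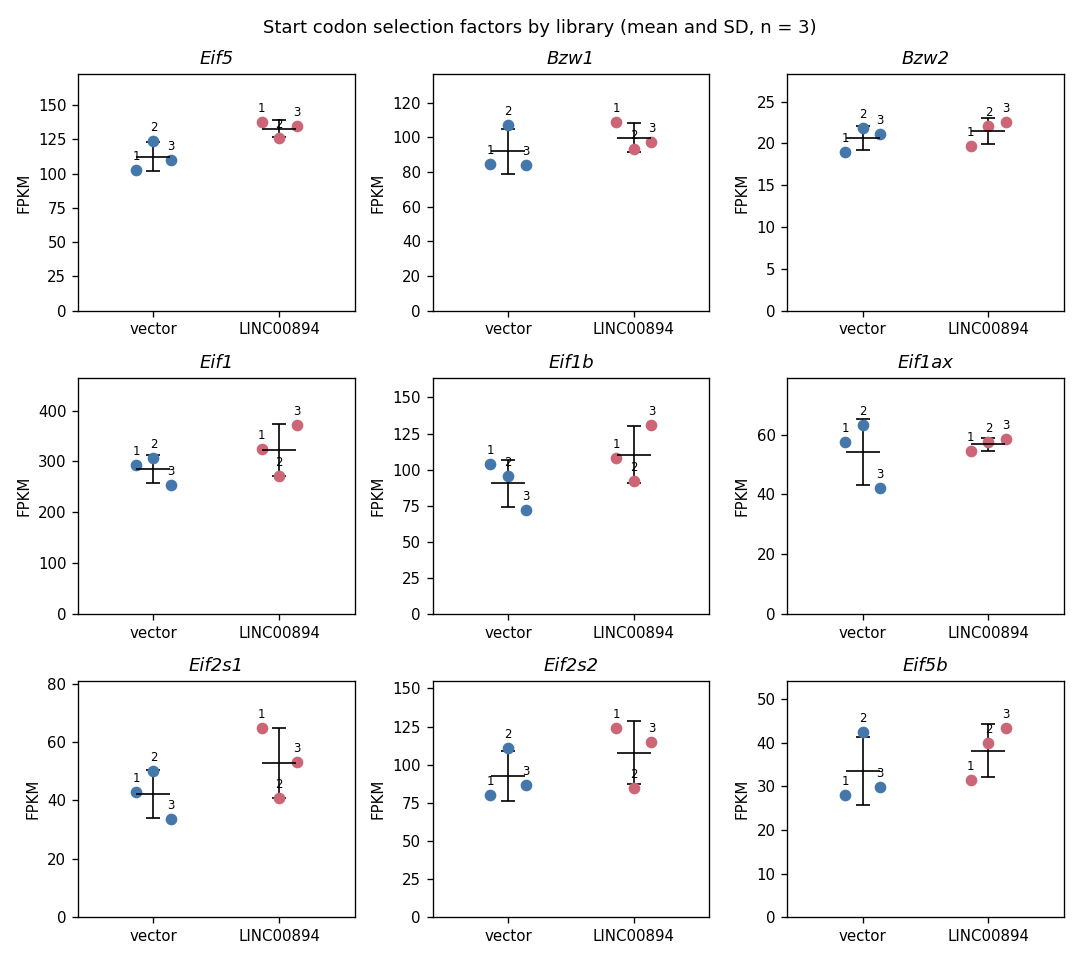
Level of each of the 9 genes in FPKM (vertical axes, from 0) in the vector and LINC00894 groups; points are libraries with their replicate number, the long bar is the mean and the whiskers the SD (n = 3). The groups stand apart for Eif5 (103 to 124 against 126 to 138 FPKM) and overlap for the other 8 genes.

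Eif5 was the gene whose groups did not overlap. It stood at 103, 124 and 110 FPKM across vector libraries 1, 2 and 3, against 138, 126 and 135 FPKM across LINC00894 libraries 1, 2 and 3. All LINC00894 libraries lay above all vector libraries, but vector replicate 2 and LINC00894 replicate 2 were close to each other. After scaling by TMM factors (a correction for differences in RNA composition, chosen for this comparison after seeing the data) they stood at 124 and 126 FPKM, and the groups still did not overlap. Among all genes tested, 10.2% had groups that did not overlap in FPKM, 7.86% with LINC00894 higher and 2.34% with it lower. After TMM scaling the share was 8.87%, 4.95% higher and 3.92% lower, so 1 gene of 9 is near that background. The vector mean was 112 ± 10.7 FPKM and the LINC00894 mean 133 ± 6.07 FPKM (SD, n = 3 each). The microglial marker sum also lay higher in every LINC00894 library in FPKM, but its groups overlapped after TMM scaling. The median log2 fold change was 0.072 over the 5 microglial and -0.165 over the 5 neuronal markers. Over the 2 markers of glutamatergic neurons it was -0.442. Other marker lists went both ways, with -0.214 for oligodendrocytes, -0.15 for astrocytes, 0.013 for GABA neurons, 0.175 for endothelium and 1.152 for neutrophils. The part of these markers in the Eif5 result was not tested. By edgeR the log2 fold change of Eif5 was 0.18 (SE 0.14), a fold change of 1.13 with a 95% interval of 0.911 to 1.41 and a Benjamini-Hochberg adjusted p of 0.981. Permuting the group labels of the FPKM values exactly, two-sided, gave an exact p = 0.1, the smallest that 3 against 3 libraries allow. Among the 4 libraries with Kdm5d counts the log2 fold change was 0.20 (SE 0.18), where the LINC00894 group is a single library assumed to vary like the vector group. The counts of Eif5 were 4813 to 7045 per library, which puts counting error at no more than 1.44%, below the coefficient of variation of 9.51% among vector libraries and 4.57% among LINC00894 libraries.

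Eif5 (ENSRNOG00000010218) lies, in the table's own coordinates (the sources used here name no build), on the plus strand of chromosome 6 from 136004214 to 136011406. A short gene of 126 bases on the same strand, AABR07065593.1, lies inside it and had 19 to 45 counts per library. A second row of the same orthology group as Eif5, AABR07041140.1 on chromosome X, had 12 to 21 counts. Either row could share reads with Eif5, which itself had at least 4813 counts in each library.

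The promoter sequences of Eif5, of its mimic gene Bzw1 and of the eIF2 subunit gene Eif2s1 are shown as the 250 bases before the RefSeq gene start in the GRCr8 assembly, 5′ to 3′. Bzw1 and Eif2s1, which had a Pearson's r of 0.72 and 0.64 with Eif5 over the 6 libraries, were chosen after their values were seen; Eif2s2 had a higher r, 0.76. Capitals mark the CCAAT box (CCAAT) and the GC box (GGGCGG), common elements of housekeeping promoters, and the core of ETS factor sites (CGGAAG), each searched on both strands. The windows are chr6:136410083-136410332 on the plus strand for Eif5, chr9:67424610-67424859 on the plus strand for Bzw1 and chr6:103405630-103405879 on the plus strand for Eif2s1.
Eif5: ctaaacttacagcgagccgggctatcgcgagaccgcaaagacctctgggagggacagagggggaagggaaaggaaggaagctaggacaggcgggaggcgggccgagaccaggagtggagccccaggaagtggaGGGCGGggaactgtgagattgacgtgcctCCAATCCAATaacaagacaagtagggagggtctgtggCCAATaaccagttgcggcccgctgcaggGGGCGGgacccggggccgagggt
Bzw1: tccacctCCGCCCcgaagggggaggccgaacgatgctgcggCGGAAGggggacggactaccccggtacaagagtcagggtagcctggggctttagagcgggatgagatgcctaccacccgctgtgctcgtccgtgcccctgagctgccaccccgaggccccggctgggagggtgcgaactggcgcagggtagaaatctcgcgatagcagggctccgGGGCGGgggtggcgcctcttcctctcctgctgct
Eif2s1: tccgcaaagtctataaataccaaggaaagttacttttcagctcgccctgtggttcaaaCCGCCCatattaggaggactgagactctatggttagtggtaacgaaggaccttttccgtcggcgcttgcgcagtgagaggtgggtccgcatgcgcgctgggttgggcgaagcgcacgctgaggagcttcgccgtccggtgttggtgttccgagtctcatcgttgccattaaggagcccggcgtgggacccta

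The Eif5 window held 3 CCAAT boxes, at 88, 83 and 51 bases before the start, and 2 GC boxes, at 117 and 23 bases. A CCAAT box occurred in 34.0% and a GC box in 30.5% of the 33469 windows of this length in the RefSeq table, and the ETS core in 13.9%. Of the 9 genes, all of which matched an entry, 8 had a GC box (Eif5b had none), Eif5 and Eif1 had a CCAAT box, and Bzw1, Bzw2, Eif1b and Eif1ax had an ETS core, which in Bzw2 overlaps a GC box. For Bzw2, Eif1, Eif1b and Eif2s2 the start that the window precedes is not the edge of the RefSeq gene. The palindromic cyclic AMP response element TGACGTCA, in 1.59% of all windows, was found in none of the 9. The letters TTGCATCA, a form of the element that C/EBP and ATF4 dimers bind, occurred in 0.693% of all windows and, of the 9 genes, in Eif2s2 only, on the opposite strand and beginning 36 bases before the start. That stretch, on the minus strand of GRCr8 at chr3:163855588-163855617, is shown with the match in capitals. A match is a run of letters and no measured binding.
Eif2s2: ttccctttcgcTGATGCAAgagcctagcgc

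The Eif5 mimic genes differed from each other in level and did not differ detectably between the groups. Bzw1 (ENSRNOG00000013977, chromosome 9, 65279675 to 65291651) stood at 84.4, 107 and 84.1 FPKM across the vector libraries, against 109, 93.4 and 97.1 FPKM with LINC00894. Vector replicate 2 lay above LINC00894 replicates 2 and 3, so the groups overlapped. Its log2 fold change by edgeR was 0.06 (SE 0.15) with a 95% interval of -0.28 to 0.40, and it took the opposite sign with the trend in exonic length removed (-0.004). Bzw2 (ENSRNOG00000005096, chromosome 6, 55586346 to 55647665) was the least abundant of the 9 genes, at 19.0, 21.8 and 21.1 FPKM across the vector libraries, against 19.7, 22.1 and 22.6 FPKM with LINC00894. Its log2 fold change was -0.009 (SE 0.16), with a 95% interval on the fold scale of 0.779 to 1.27, and it was 0.06 when libraries were scaled by their summed counts alone.

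Eif1 was the most abundant of the 9 genes and followed its paralog Eif1b from library to library. Eif1 (ENSRNOG00000033765, chromosome 10, 88227360 to 88229765) stood at 293, 307 and 254 FPKM across the vector libraries, against 325, 271 and 372 FPKM with LINC00894. Eif1b (ENSRNOG00000018848, chromosome 8, 129158103 to 129160757) stood at 104, 95.3 and 71.9 FPKM across the vector libraries, against 108, 92.4 and 131 FPKM with LINC00894. For both genes LINC00894 replicate 3 was the highest library and vector replicate 3 the lowest, and LINC00894 replicate 2 lay inside the vector range. The log2 fold change by edgeR was 0.11 (SE 0.16) for Eif1 and 0.22 (SE 0.19) for Eif1b. Without LINC00894 replicate 3 these became -0.02 and 0.06, and without vector replicate 3 they became 0.02 and 0.07. Among the 4 libraries with Kdm5d counts, where LINC00894 replicate 3 is the only one of its group, they were 0.32 (SE 0.18) and 0.47 (SE 0.24). Over the 6 libraries the log2 CPM (library-scaled counts) of the 2 genes had a Pearson's r of 0.92, the highest of the 36 pairs among the 9 genes, a description over libraries that share depth and composition. Their coding sequences are similar, and the sources used here do not say how reads that match both were counted. Of 5 further rows in the orthology group of Eif1, Gm5471, named as in the mouse, had 109 to 144 counts and the other 4 had 0.

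Eif1ax, which encodes the scanning factor eIF1A on the X chromosome (ENSRNOG00000005736, 37579957 to 37595486), stood at 57.5, 63.3 and 42.0 FPKM across the vector libraries, against 54.4, 57.5 and 58.6 FPKM with LINC00894. The vector libraries spread more widely than the LINC00894 libraries and enclosed them. The log2 fold change was 0.001 (SE 0.17) by edgeR, with a 95% interval on the fold scale of 0.766 to 1.31, and -0.17 without vector replicate 3. The chromosome 18 gene Eif1a, a second row for eIF1A that was named after its values were seen, stood at 37.3, 42.9 and 28.6 FPKM across the vector libraries, against 53.6, 30.9 and 44.4 FPKM with LINC00894. Its log2 fold change was 0.17 (SE 0.22) and its groups overlapped. Reads that match both eIF1A genes may be split between them in a way that the sources used here do not give.

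Eif2s1 and Eif2s2 encode the alpha and beta subunits of eIF2, and their mRNAs moved in parallel among the libraries. Eif2s1 (ENSRNOG00000009432, chromosome 6, 102048372 to 102073041), whose product is the target of the eIF2 kinases, stood at 43.0, 50.2 and 33.7 FPKM across the vector libraries, against 64.8, 40.8 and 53.1 FPKM with LINC00894. Eif2s2 (ENSRNOG00000017447, chromosome 3, 150391460 to 150412179), whose product contacts Eif5, stood at 80.0, 111 and 86.4 FPKM across the vector libraries, against 124, 84.6 and 115 FPKM with LINC00894. In both genes LINC00894 replicates 1 and 3 were the highest libraries in FPKM, although after TMM scaling vector replicate 2 of Eif2s2 (112 FPKM) was about level with LINC00894 replicate 3 (111 FPKM), and LINC00894 replicate 2 fell inside the vector range. The log2 fold change by edgeR was 0.25 (SE 0.20) for Eif2s1 and 0.15 (SE 0.19) for Eif2s2, and Eif2s1 had the largest value of the 9 genes. Without LINC00894 replicate 1 the values were 0.09 and 0.045, and without vector replicate 2 they were 0.38 and 0.29. Pearson's r between the 2 genes was 0.83 over the 6 libraries.

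Eif5b encodes the GTPase that joins the large ribosomal subunit after the start codon has been selected. Eif5b (ENSRNOG00000023356, chromosome 9, 44681494 to 44713199) stood at 28.1, 42.6 and 29.9 FPKM across the vector libraries, against 31.4, 39.9 and 43.4 FPKM with LINC00894. Vector replicate 2 was higher than LINC00894 replicates 1 and 2, and the coefficient of variation among vector libraries, 23.6%, was the widest of the 9 genes. The log2 fold change by edgeR was 0.13 (SE 0.20), with values of 0.01 without vector replicate 1 and 0.32 without vector replicate 2, and 0.305 (SE 0.26) among libraries with Kdm5d counts. A further row of its orthology group, AABR07043748.1 on chromosome 19, had 115, 29 and 87 counts across the vector libraries, against 100, 19 and 124 with LINC00894. Eif5b itself had 1359 to 2508 counts, and the reads that the 2 rows may share were not tested.

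By mean FPKM over all libraries, the order of levels was Eif1, Eif5, Eif1b, Eif2s2, Bzw1, Eif1ax, Eif2s1, Eif5b and Bzw2, from 304 to 21.0 FPKM. Eif1 was above Eif5 in 6 of 6 libraries and held 34.4% of the summed FPKM of the 9 genes on average, against 13.9% for Eif5. Eif1b and Eif2s2 were not separated, with Eif1b higher in 3 of 6 libraries, and neither were Eif2s2 and Bzw1 (4 of 6). Eif5 was above Eif1b in 5 of 6 libraries, Eif1ax was above Eif2s1 in 5 of 6, and Eif2s1 was above Eif5b in 6 of 6 although the ranges overlapped. Bzw1 was above Eif1ax and Eif5b above Bzw2 in 6 of 6 libraries with no overlap of the ranges. The summed FPKM of the 9 genes was 811, 922 and 733 across the vector libraries, against 975, 828 and 1030 with LINC00894, so the groups overlapped.

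**Figure D2:**
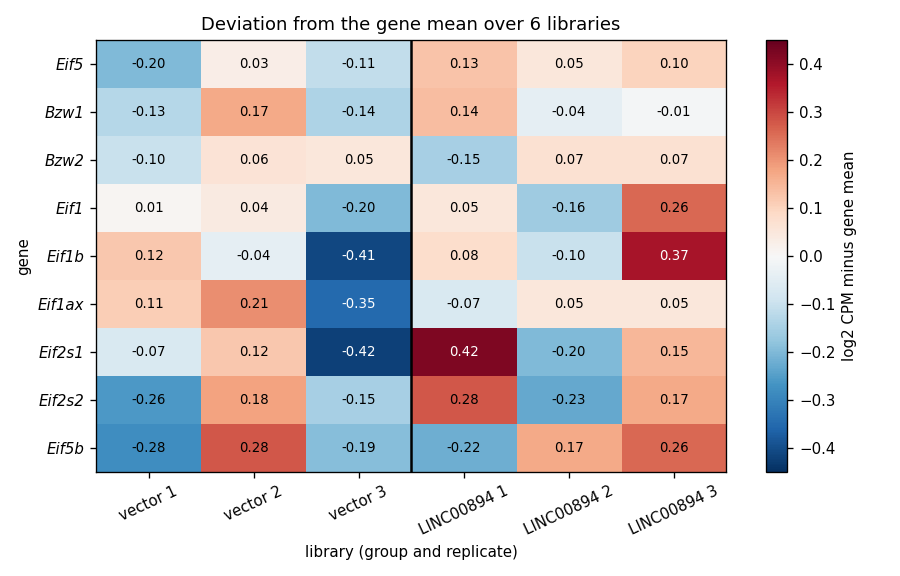
Deviation of each gene (rows) in each library (columns) from that gene's mean over the 6 libraries, in log2 CPM after TMM scaling; red is above the mean and blue below, and the vertical line separates vector from LINC00894. Eif5 is the only row with one sign in most vector libraries and the other in all LINC00894 libraries, apart from 0.03 in vector replicate 2.

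The 9 genes also varied among libraries of the same group. In log2 CPM after TMM scaling, 8 of the 9 genes lay above their own mean in vector replicate 2 and 8 in LINC00894 replicate 3, but 1 of 9 did in vector replicate 3. The median deviation of the 9 genes was -0.10, 0.12 and -0.19 across the vector libraries, against 0.08, -0.04 and 0.15 with LINC00894. Vector replicate 3, which was the lowest library in FPKM for Bzw1, Eif1, Eif1b, Eif1ax and Eif2s1, was also the library with the lowest astrocyte and highest oligodendrocyte marker sums. The part of these markers in the result was not tested. Of the 36 pairs among the 9 genes, 31 had a positive Pearson's r, with a median of 0.44. The 5 negative pairs all involved Bzw2, which had an r of -0.51 with Eif2s1 and of 0.77 with Eif5b. Eif5 had an r of 0.76 with Eif2s2, 0.72 with Bzw1, 0.64 with Eif2s1, 0.45 with Eif1 and 0.12 with Bzw2.

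**Figure D3:**
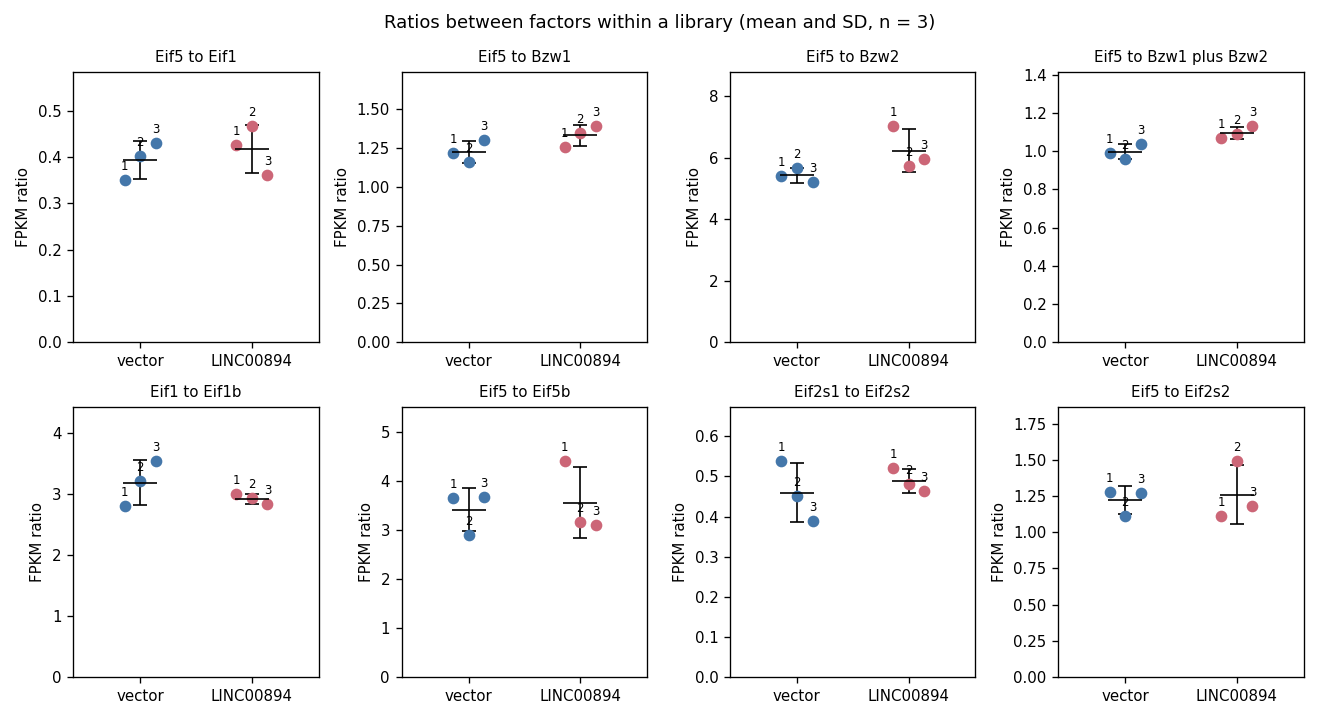
Ratio of FPKM between 2 factors in the same library (vertical axes, from 0) for 8 ratios; points are libraries with their replicate number, bars are the mean and SD (n = 3). The ratio of Eif5 to Bzw1 plus Bzw2 ranges from 0.961 to 1.04 in vector and from 1.07 to 1.13 in LINC00894.

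Because Eif5 acts against Eif1 and competes with its mimics, ratios within a library were compared, which need no scaling between libraries. The ratio of Eif5 to the sum of Bzw1 and Bzw2 was 0.992, 0.961 and 1.04 across the vector libraries, against 1.07, 1.09 and 1.13 with LINC00894. All LINC00894 libraries lay above all vector libraries, and the mean log2 ratio was 0.13 higher in LINC00894. The ratio of Eif5 to Bzw2 was 5.40, 5.67 and 5.21 across the vector libraries, against 7.02, 5.72 and 5.96 with LINC00894, with groups that did not overlap, and the mean log2 ratio was 0.20 higher. For both ratios a two-sided exact permutation test gave p = 0.1, the smallest possible, and 0.4 after Benjamini-Hochberg adjustment over the 8 ratios. Both ratios hold Eif5, whose own groups did not overlap, and Bzw2. They are therefore not independent of the Eif5 result or of each other. The ratio of Eif5 to Bzw1 alone overlapped between groups (1.16 to 1.30 in vector and 1.26 to 1.39 in LINC00894).

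All ratios here are of mRNA, and neither protein amounts nor start codon stringency were measured. The mRNA ratio of Eif5 to Eif1, whose products have opposed effects on that stringency, did not differ beyond its spread. It was 0.350, 0.402 and 0.431 across the vector libraries, against 0.425, 0.466 and 0.362 with LINC00894, so the vector and LINC00894 ranges overlapped. The mean log2 ratio was 0.08 higher in LINC00894 (exact permutation p = 0.6), and among libraries with Kdm5d counts it was -0.12. The ratio of Eif1 to Eif1b lay between 2.81 and 3.54 in all 6 libraries, and that of Eif2s1 to Eif2s2 between 0.390 and 0.538. The ratios of Eif5 to Eif5b and of Eif5 to Eif2s2 gave an exact permutation p of 0.8 each.

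**Figure D4:**
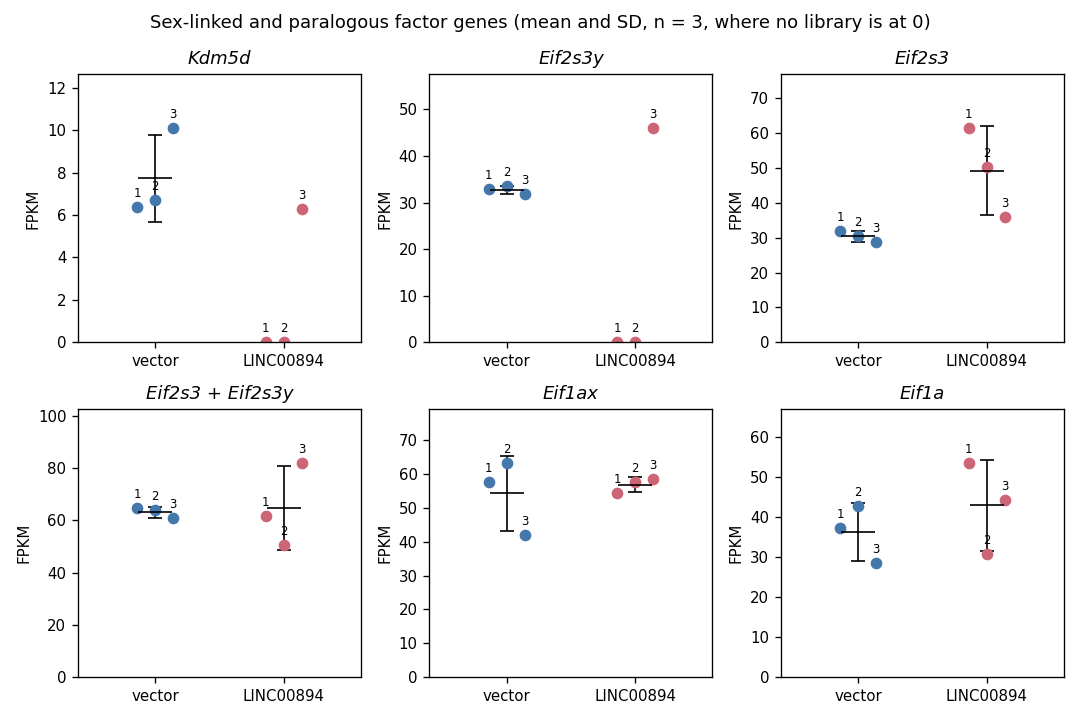
Level in FPKM (vertical axes, from 0) of the Y-linked Kdm5d and Eif2s3y, the X-linked Eif2s3, the sum of Eif2s3 and Eif2s3y, the X-linked Eif1ax and its autosomal paralog Eif1a; points are libraries with their replicate number, bars the mean and SD (n = 3), drawn where no library is at 0. Eif2s3 is highest in LINC00894 replicates 1 and 2, where Eif2s3y is at 0, and the sum overlaps between groups.

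The third subunit of eIF2, gamma, binds the initiator tRNA and is encoded on both sex chromosomes. The X-linked Eif2s3 stood at 31.9, 30.5 and 28.8 FPKM across the vector libraries, against 61.5, 50.4 and 36.0 FPKM with LINC00894. Its log2 fold change by edgeR was 0.63 (SE 0.20; unadjusted p = 0.0101, adjusted p = 0.981 by Benjamini-Hochberg), the only one of 36 tested partner genes with an unadjusted p under 0.05, and it was higher in LINC00894, as were 1.82% of all genes at that p. The Y-linked Eif2s3y stood at 32.8, 33.5 and 31.9 FPKM across the vector libraries, against 0, 0 and 46.0 FPKM with LINC00894. Summed, the 2 genes stood at 64.7, 64.0 and 60.7 FPKM across the vector libraries, against 61.5, 50.4 and 82.0 FPKM with LINC00894, so the groups overlapped (two-sided exact permutation p = 0.9). Among the 4 libraries with Kdm5d counts the log2 fold change of Eif2s3 was 0.17 (SE 0.18). Eif1ax, also X-linked, did not stand apart in LINC00894 replicates 1 and 2, at 54.4 and 57.5 FPKM.

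**Figure D5:**
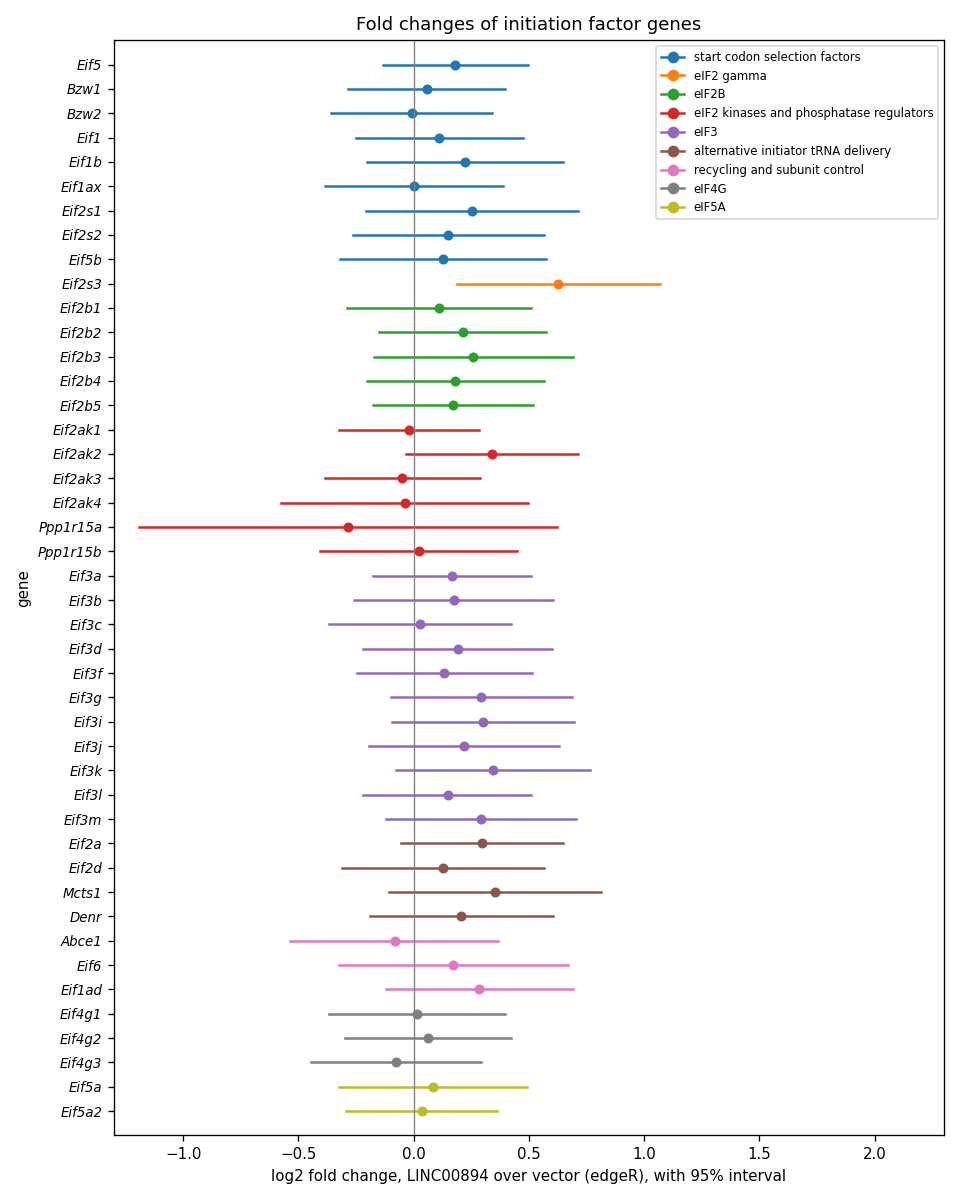
Log2 fold change of LINC00894 over vector (points) with its 95% interval (lines) from edgeR for the 9 genes and for 35 partner genes, coloured by list; Eif2s3y, at 0 in LINC00894 replicates 1 and 2, is not drawn. The interval of Eif2s3 (0.19 to 1.07) lies above 0 and the intervals of the other genes include 0.

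Genes that work around the start codon selection factors were followed as 8 lists, of which 36 genes were tested. By edgeR with Benjamini-Hochberg adjustment 0 of the 36 passed. Of the 36 genes, 29 had a log2 fold change above 0, against 51.8% of all genes tested. The median of the 36 was 0.17 against 0.012 over all genes. These genes were measured in the same libraries, so signs shared within or between the lists cannot be taken as independent. The 5 subunits of eIF2B, which reloads eIF2 with GTP, all had positive values with a median of 0.18, and Eif2b3 had the smallest p of them at 7.36, 9.95 and 8.23 FPKM across the vector libraries, against 12.2, 9.76 and 10.1 FPKM with LINC00894. Of eIF3, the scaffold of the scanning complex, 11 genes were analysed here, which are not all of its subunits. All 11 had positive values, with a median of 0.19 and 0 at an unadjusted p under 0.05. Leaving out vector replicate 3 lowered that median to 0.11, and leaving out LINC00894 replicate 2 raised it to 0.31. Eif3k stood at 55.2, 61.7 and 46.2 FPKM across the vector libraries, against 67.1, 60.7 and 89.3 FPKM with LINC00894, a log2 fold change of 0.34 (SE 0.19). Eif3i was the one eIF3 gene whose groups did not overlap, at 19.7, 20.7 and 19.8 FPKM across the vector libraries, against 25.4, 22.9 and 29.5 FPKM with LINC00894, and it is named after its values were seen. Beside the 10.2% of all genes tested with such groups in FPKM (8.87% after TMM scaling), 1 of 11 is near the background. Of the 5 eIF2B genes, 2 had such groups in FPKM and 1 after TMM scaling.

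The enzymes that set eIF2 phosphorylation had mixed signs, 2 above and 4 below 0, with a median of -0.03 that turned to 0.039 with libraries scaled by summed counts and to 0.14 without vector replicate 3. Eif2ak2, the kinase activated by double-stranded RNA and an interferon-induced gene, stood at 8.41, 9.67 and 8.82 FPKM across the vector libraries, against 13.2, 9.81 and 12.7 FPKM with LINC00894. LINC00894 replicate 2 lay just above the highest vector library, and the log2 fold change was 0.34 (SE 0.17; edgeR adjusted p = 0.981). Ppp1r15a, the stress-induced subunit of the phosphatase that reverses eIF2 phosphorylation, had the widest spread, from 14.4 to 47.8 FPKM, with the highest value in vector replicate 3; it is named after its values were seen.

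The 4 genes for delivery of initiator tRNA without eIF2 all had positive values, with a median of 0.25 that was 0.13 without LINC00894 replicate 3. The member with the smallest p, Eif2a, stood at 15.7, 19.5 and 19.5 FPKM across the vector libraries, against 25.4, 22.0 and 22.9 FPKM with LINC00894. Its groups did not overlap, and its log2 fold change was 0.29 (SE 0.16) with an adjusted p of 0.981 by edgeR. In this list 2 of 4 genes had such groups in FPKM and 1 of 4 after TMM scaling. Among all genes tested the shares were 10.2% and 8.87%. The ribosome recycling factor Abce1, the subunit anti-association factor Eif6 and Eif1ad differed between groups by -0.08 (SE 0.20), 0.17 (SE 0.22) and 0.28 (SE 0.18) in log2 fold change. The scaffold genes Eif4g1, Eif4g2 and Eif4g3 had values of 0.01 (SE 0.17), 0.06 (SE 0.16) and -0.08 (SE 0.17). The similarly named Eif5a and Eif5a2, which act mainly in elongation and not in start codon selection, had values of 0.08 (SE 0.18) and 0.04 (SE 0.15).

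The genes whose log2 CPM followed Eif5 most closely over the 6 libraries, among 13720 genes with at least 1 FPKM on average, were AC096317.5 and Rsl1 (Pearson's r of 0.99 each) and Czib, Dapp1 and Rad9a (0.98 each). Czib, for example, stood at 15.9, 19.8 and 16.5 FPKM across the vector libraries, against 22.3, 20.1 and 21.0 FPKM with LINC00894, in the same order of libraries as Eif5. Of the 13720 genes, 102 reached an r of at least 0.9 with Eif5 over these 6 libraries, which share depth and composition. The named genes have the highest of those 13720 correlations and were picked after the values were seen. AC096317.5, Rsl1 and Dapp1 had the lowest levels of them, near the limit of 1 FPKM. How many unrelated genes would reach such an r by chance over 6 libraries was not tested. The 102 genes are therefore not shown to be linked to Eif5. Of the other genes in the series title, Atf4 stood at 123, 143 and 113 FPKM across the vector libraries, against 160, 103 and 177 FPKM with LINC00894, with a log2 fold change of 0.14 (SE 0.20). Fgf21 had 4, 16 and 4 counts across the vector libraries, against 19, 4 and 6 with LINC00894, and did not pass the filter on low counts. Acod1 had 2, 4 and 0 counts across the vector libraries, against 24, 27 and 31 with LINC00894. Its highest level was 0.66 FPKM. By edgeR the log2 fold change of Acod1 was 3.83 (SE 0.66), with an unadjusted p of 0.000219 and a Benjamini-Hochberg adjusted p of 0.981.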

How the data were processed

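Total RNA from rat brain was selected for poly(A) and primed at random for paired-end sequencing, per the labels' protocols. HISAT2 2.0.1 and DESeq2 appear in the submitters' processing notes, their roles unstated. For the counting tool, strand setting, annotation and build, nothing is given in the sources used here. The authors deposited 1 table that pairs raw counts with FPKM for each gene and library, and the deposited FPKM values equal counts over exonic length and summed counts to within 0.005. Rows without a symbol (388, 0.0236% of counts) stayed in the tests. Replicates were numbered in accession order and pair nothing.

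Counts of all 6 libraries were tested with edgeR 4.0.16 in R 4.3.3: filterByExpr (minimum count 10, minimum total 15), TMM scaling and the quasi-likelihood F-test without covariates. The Benjamini-Hochberg adjustment ran over all 15121 genes tested (threshold 0.05). Exact permutation tests used 20 arrangements, for FPKM per gene and for 8 ratios. The edgeR, DESeq2 and limma steps were tested on simulated data with planted changes larger than those of the member genes. That test therefore does not tell whether changes as small as those of the members would be found. Other settings tried were DESeq2 1.42.0, other scalings and filters, and removal of the length trend. Further settings were limma 3.58.1 on log2 of FPKM plus 1 or 0.1 for genes averaging 0.5 FPKM or more, and each library left out. The presence of Kdm5d counts was also used as a covariate or as a condition for including a library. The members and lists were chosen with earlier results of these data known. Named partner genes are those with the smallest unadjusted p of their list, and all genes of lists with 3 or fewer; others are marked. Promoter sequences are RefSeq's (GRCr8). Plots were drawn with matplotlib 3.10.9.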

Additional observations from a re-analysis of the deposited data

How the results depend on the processing

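Over 15 alternatives, 0 of the 9 genes passed the adjusted p in any, and 0 had an unadjusted p under 0.05; between 6 and 9 of them had a log2 fold change above 0. Over all genes, edgeR called 0, DESeq2 called 11 (655 at an unadjusted p under 0.05) and edgeR without the filter on low counts called 8 (975); leaving out 1 library gave 0 to 9 calls. The log2 fold change of Eif5 was 0.12 to 0.24 with 1 library left out and 0.16 to 0.25 otherwise. The sign changed for genes close to 0. Bzw1 was -0.004 with the length trend removed, and -0.016 to 0.17 with 1 library left out. Bzw2 was 0.057 with summed counts scaling, and 0.055 and 0.057 by limma with a pseudocount of 1 and 0.1. It was 0.058 with the presence of Kdm5d counts as a covariate and 0.062 among libraries with Kdm5d counts. With 1 library left out it was -0.069 to 0.056. Eif1ax was -0.017 by DESeq2 and with median-of-ratios scaling, -0.013 without the filter, and -0.17 to 0.11 with 1 library left out. Eif1 was -0.022 to 0.19 with 1 library left out. The median of the eIF2 kinase and phosphatase genes, -0.029, was 0.039 with summed counts scaling, 0.040 and 0.046 by limma, 0.054 with the length trend removed, and -0.088 to 0.14 with 1 library left out. Among libraries with Kdm5d counts the difference in log2 ratio, LINC00894 minus vector, was -0.12 for Eif5 to Eif1, -0.13 for Eif5 to Eif5b and -0.051 for Eif5 to Eif2s2. With 1 library left out these were -0.004 to 0.18, -0.11 to 0.14 and -0.091 to 0.12, and Eif2s1 to Eif2s2 was -0.011 to 0.22. The cause of these sign changes was not tested. Without LINC00894 replicate 3 the Y-linked Eif2s3y was among the 9 calls. Summed counts scaling moved the median log2 fold change of all genes to 0.08 and split the genes at an unadjusted p under 0.05 into 430 higher and 207 lower, against 275 and 335 with TMM; limma on FPKM gave 510 and 204 (pseudocount 1) and 501 and 206 (0.1). No paired analysis was possible because the labels give the groups no shared replicate numbers. With 3 libraries a group, the 95% interval of the Eif5 fold change, 0.911 to 1.41, includes 1.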
